A study of Sus scrofa with 8 samples.

Results

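The genes described here drive the cell division cycle and the copying of DNA. They were chosen by symbol from a list of 60 names, which stand for 59 genes because CDC2 is the older name of CDK1, and a probeset was taken where the annotation of the array gives it 1 of these symbols and no other. Of the 59 genes, 38 were matched, with 53 of the 23999 probesets on the array that are not controls, among 6790 named genes in all. For 21 genes no probeset was matched by this rule, so that CDK1, CDK4, CCND1, CCND3, CCNE1, CCNE2, RB1, MCM6, MCM7, CDC6, RFC4, PRIM1, POLA1, TK1, BUB1, BUB1B, TTK, CENPA, CENPE, KIF11 and MKI67 have no value below. A further 3 probesets carry a member symbol only in the study's own table of called probesets, and they are described without a test.

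The tissue was endometrium, the inner lining of the uterus, of pregnant gilts on day 12 of gestation. One group was 4 Meishan gilts, a prolific Chinese breed, and the other was 4 Yorkshire gilts, a European breed with smaller litters. Every gilt had been bred at the second or the third estrus to a boar of its own breed, so the breed of the dam and that of the conceptuses cannot be told apart. Tissue was taken from all areas of the uterine lumen and used only where the conceptuses were filamentous, and RNA of each gilt was hybridized to 1 one-colour Affymetrix Porcine Genome array.

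In G1 phase the D cyclins activate CDK4 and CDK6, and cyclin E then activates CDK2, which together release E2F factors from RB1 and open S phase. Helicases of the MCM family are loaded on origins before S phase, and the replication fork, with its clamp, clamp loader and nucleases, copies the DNA. Cyclins A and B with CDK1 drive mitosis, in which the spindle checkpoint holds the anaphase promoting complex until every chromosome is attached. Transcripts of S phase and mitosis are abundant in dividing cells and scarce in resting ones, whereas D cyclins, CDK inhibitors and several fork proteins are also made by cells that do not divide. At this stage of pregnancy the pig endometrium holds luminal and glandular epithelium, stroma, vessels and leukocytes, beside conceptuses that are themselves growing fast.

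A difference is given as the log2 signal in Meishan minus that in Yorkshire, with its standard error (SE), from a limma fit over all 23999 probesets with Benjamini-Hochberg adjustment, and 0.1 was the adjusted p below which a probeset counted as called. A mean signal is the geometric mean over 4 gilts once each array had been centred on its median, and each gene was taken at its brightest probeset unless another is named. Over all probesets limma called 0.404% toward Meishan and 0.504% toward Yorkshire. Among the 53 member probesets it called 2 toward Meishan, of AURKB and MCM2, and 0 toward Yorkshire. At an unadjusted p under 0.05, 10 of the 53 lay toward Meishan against 7.79% of all probesets, and 2 of the 53 lay toward Yorkshire against 6.96% of all probesets. All 4 Meishan gilts stood above all 4 Yorkshire gilts at 5 of the 53 member probesets and at 5.01% of all probesets. The reverse held at 0 of the 53 and at 5.09% of all. With 1 gilt left out, member probesets at an unadjusted limma p under 0.05 toward Meishan ranged from 6 without Meishan 1 to 16 without Meishan 2. Toward Yorkshire there were 3 without Meishan 1 and 1 without Meishan 2. A linear model without moderation called the same 2 member probesets, and its unadjusted p was under 0.05 at 11 toward Meishan and at 1 toward Yorkshire.

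Taken at 1 probeset per gene, 25 of the 38 genes were higher in the Meishan mean and 13 in the Yorkshire mean, with a median log2 difference of 0.22, and 25 to 27 of the 38 lay toward Meishan with no further scaling or with quantile or cyclic loess normalization. Over all 6790 named genes the median was -0.01 and 49.2% lay toward Meishan. Most roles held genes on both sides. Of 29 transcripts characteristic of dividing cells, 23 lay toward Meishan with a median of 0.39. In that direction 9 of the 29 reached an unadjusted limma p under 0.05, and PLK1 alone did in the other. Over all 6790 named genes 420 did so toward Meishan and 416 toward Yorkshire. Of the other 9 members, such as CCND2, CDK6 and CDKN1B, 7 lay toward Yorkshire with a median of -0.24, and 0 reached an unadjusted p under 0.05 in limma or in the model without moderation. The split into these lists was drawn with earlier results of these data known. It placed the fork genes PCNA, FEN1 and RFC5 among the 29. RPA1, another fork gene, RRM1 and CDC25B were placed among the other 9. The opposite medians depend in part on how the lists were drawn and are a description. In whole tissue, fewer cells of a type and less RNA per cell cannot be told apart.

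**Figure D1:**
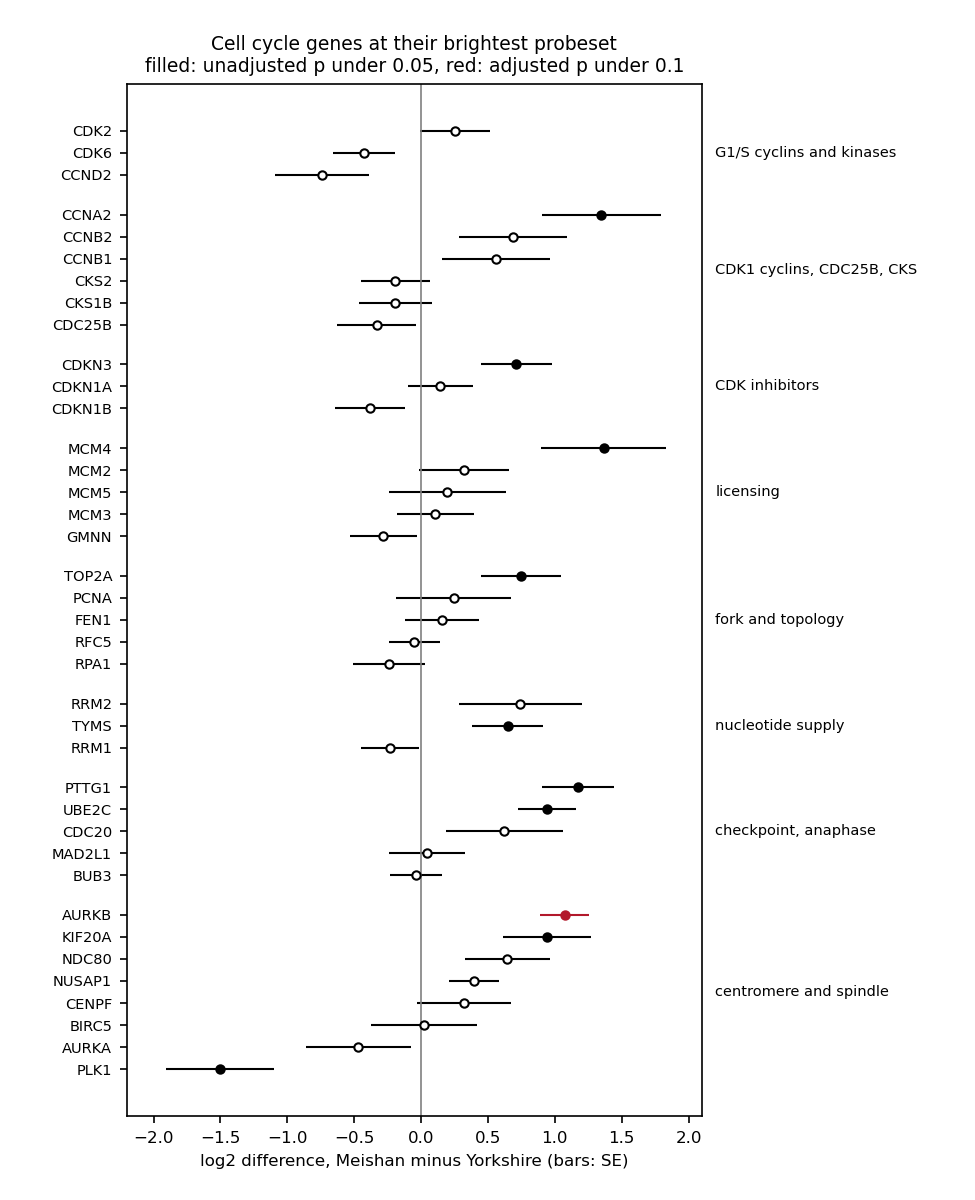
Log2 difference, Meishan minus Yorkshire, of each of the 38 cell cycle genes at its brightest probeset, grouped by role; points are estimates from 4 gilts of each breed, bars are SE, filled points have an unadjusted p under 0.05 and red marks an adjusted p under 0.1. Of the filled points 9 lie to the right of 0 and PLK1 to the left, and AURKB at 1.07 is the red one.

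At 1 probeset per gene, the lowest adjusted p among the 38 genes was that of AURKB, Aurora B, the kinase of the chromosomal passenger complex that corrects faulty attachments of chromosomes to the spindle and acts in cytokinesis. Its signals were 377, 321, 323 and 393 in the Meishan gilts, against 144, 203, 153 and 173 in the Yorkshire gilts. The lowest Meishan gilt lay well above the highest Yorkshire gilt. AURKB was 2.11-fold higher in Meishan, with means of 352 and 167 (log2 difference 1.07, SE 0.18, 95% confidence interval 0.65 to 1.50, limma adjusted p = 0.0692 after Benjamini-Hochberg adjustment). The call rests on all 8 arrays, since leaving out any 1 of the 8 gilts gave adjusted p of 0.103 to 0.165 in limma while the log2 difference stayed between 1.00 and 1.17.

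Other mitotic regulators related to AURKB overlapped between the breeds. BIRC5, survivin, which recruits AURKB to chromosomes, averaged 189 in Meishan and 186 in Yorkshire, a log2 difference of 0.02 (SE 0.39), and the 95% interval of -0.88 to 0.93 leaves room for a sizeable difference either way. Its 4 Meishan values, 242, 90.4, 198 and 294, spanned more than the Yorkshire values of 281, 160, 148 and 180.2. Aurora A, AURKA, which acts at the poles of the spindle, gave a log2 difference of -0.47 (SE 0.39) at its brighter probeset and 0.34 (SE 0.27) at the other, with neither past the test. No test of AURKB against BIRC5 or AURKA was made.

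Among the remaining spindle genes KIF20A, the kinesin MKLP2 that carries the passenger complex to the central spindle, read 106, 81.6, 109 and 65.7 in Meishan gilts and 67.2, 55.3, 47.7 and 25.8 in Yorkshire gilts. Meishan 4 and Yorkshire 1 made the ranges meet (log2 difference 0.94, SE 0.33, limma adjusted p = 0.248). The Yorkshire mean of KIF20A was low, at 46.2. With signals below 32 set to 32 its log2 difference was 0.85, with a limma adjusted p of 0.151. NDC80, the kinetochore protein that grips microtubules, averaged 138 in Meishan and 88.2 in Yorkshire (0.64, SE 0.32). NUSAP1, a spindle microtubule protein, averaged 833 in Meishan and 634 in Yorkshire (0.39, SE 0.19), with 0.21 at its dimmer probeset. CENPF, a kinetochore protein that accumulates in G2, averaged 327 in Meishan and 263 in Yorkshire (0.32, SE 0.35). These 4 lay toward Meishan without passing the adjusted test.

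PLK1, the Polo kinase of mitotic entry and spindle assembly, lay the other way. It read 17.8, 40.5, 14.3 and 12.6 in Meishan gilts, against 80.8, 47.7, 54.7 and 39.2 in Yorkshire gilts, with Meishan 2 just above Yorkshire 4. Both means, 19.0 and 53.6, were below 64, the level under which signals were taken as dim here. The log2 difference of -1.50 (SE 0.40) had a limma adjusted p of 0.169. Without Meishan 2 it was -1.87 and passed, with a limma adjusted p of 0.0902, whereas with signals below 32 set to 32 it was -0.67, with a limma adjusted p of 0.202.

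**Figure D2:**
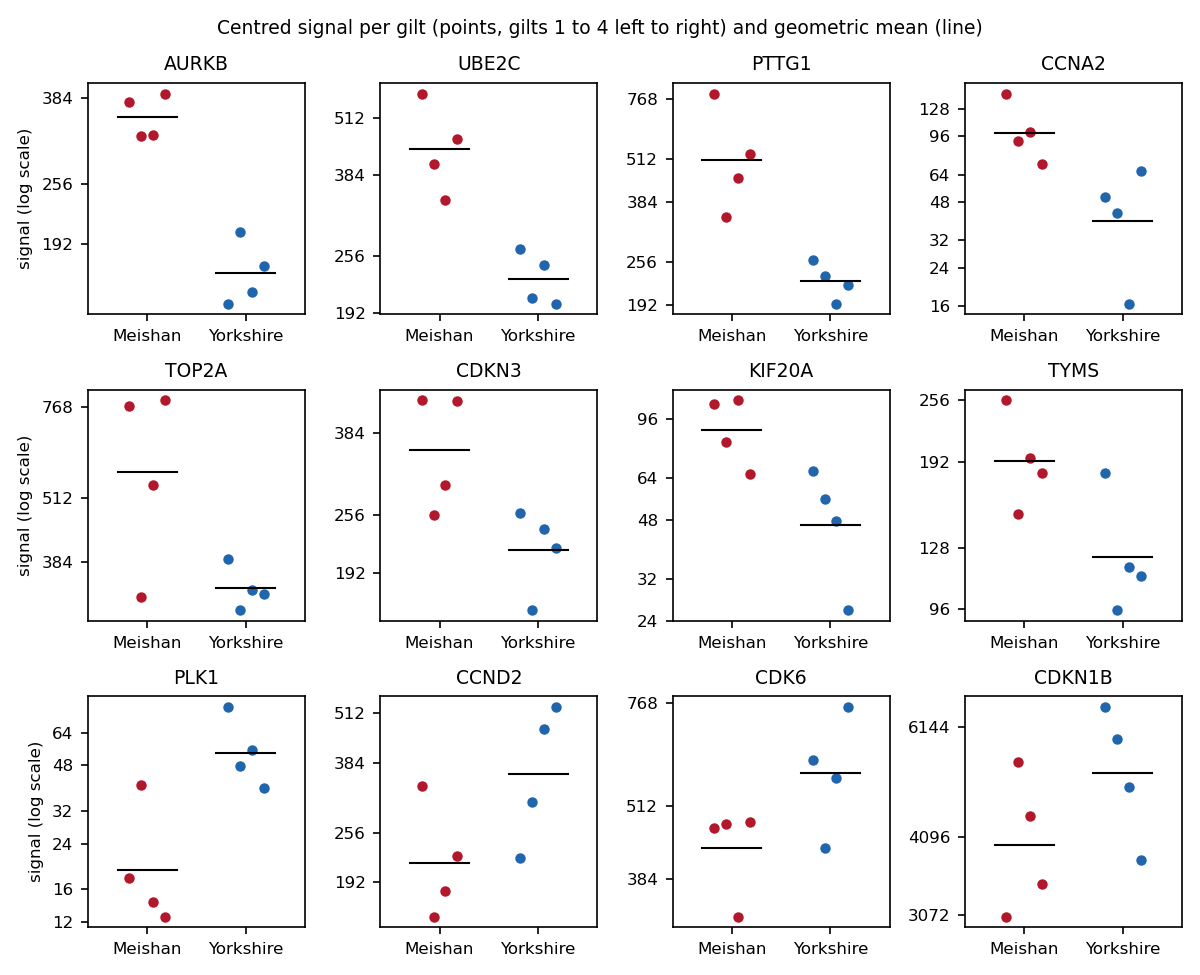
Centred signal (log scale) of 12 cell cycle genes in each gilt, Meishan left and Yorkshire right; points are gilts 1 to 4 from left to right within a breed and lines are geometric means. AURKB, UBE2C, PTTG1 and CCNA2 show no overlap between the breeds, and in TOP2A and CDKN3 the lowest Meishan gilt is Meishan 2.

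Genes that release sister chromosomes at anaphase had the next lowest p among those toward Meishan. PTTG1, securin, which holds separase inactive until the checkpoint is satisfied, read 799, 348, 453 and 532 in Meishan gilts and 260.1, 233, 193 and 220.2 in Yorkshire gilts. All Meishan gilts were above all Yorkshire gilts, with means of 508 and 225 (log2 difference 1.17, SE 0.27, limma adjusted p = 0.129). UBE2C, the ubiquitin-conjugating enzyme of the anaphase promoting complex, read 578, 405, 338 and 459.9 in Meishan gilts and 264, 207, 244 and 201 in Yorkshire gilts. Here too the breeds were apart, with means of 437 and 227 (0.94, SE 0.22, limma adjusted p = 0.129). Both missed the call in the limma fit over all probesets. With only the brightest 70% of probesets tested they passed, at limma adjusted p of 0.0596 for PTTG1 and 0.0612 for UBE2C.

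CDC20 and the checkpoint proteins that act on it overlapped between the breeds. CDC20, the activator of the anaphase promoting complex, averaged 149.8 in Meishan and 97.4 in Yorkshire, a log2 difference of 0.62 (SE 0.44), and Meishan 2 with 66.2 was among the lowest of all 8 gilts. MAD2L1, which binds CDC20 at unattached kinetochores, averaged 712 in Meishan and 690.2 in Yorkshire (0.05, 95% interval -0.61 to 0.71). BUB3, a scaffold of the same checkpoint, averaged 1456 in Meishan and 1494 in Yorkshire (-0.04, 95% interval -0.49 to 0.42). With 4 arrays of each breed, the intervals of MAD2L1 and BUB3 leave room for a difference in either direction.

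The 3 cyclins of S phase and mitosis with a value lay toward Meishan. CCNA2, cyclin A2, which serves both S phase and the entry into mitosis, ranged between 71.9 in Meishan 4 and 151 in Meishan 1, with 91.1 in Meishan 2, and read 50.5, 42.8, 16.4 and 66.4 in Yorkshire gilts. The breeds did not overlap, although Meishan 4 and Yorkshire 4 were close (means 99.7 and 39.1, log2 difference 1.35, SE 0.45, limma adjusted p = 0.227). The Yorkshire mean of CCNA2 was dim, below 64. With signals below 32 set to 32 its log2 difference was 1.08, with a limma adjusted p of 0.102. CCNB1, cyclin B1, read 701, 245, 532 and 836 in Meishan gilts and 531, 349, 305 and 285 in Yorkshire gilts. CCNB2, cyclin B2, read 197, 71.7, 166 and 256 in Meishan gilts and 136, 76.4, 83.5 and 103 in Yorkshire gilts. In both B cyclins Meishan 2 was the lowest of all 8 gilts and the other 3 Meishan gilts were above every Yorkshire gilt. The log2 difference was 0.56 (SE 0.40) for CCNB1 and 0.69 (SE 0.40) for CCNB2, with limma adjusted p of 0.565 and 0.474.

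Partners of the mitotic kinase that are not cyclins lay toward Yorkshire. CKS2, a small subunit that binds CDK1, was the brightest member, with 6753, 6134, 7513 and 7734 in Meishan gilts and 9120.3, 9025, 10120.2 and 4913 in Yorkshire gilts. Yorkshire 4 alone lay below the Meishan gilts, and the log2 difference was -0.19 (SE 0.26). Its relative CKS1B averaged 1375.5 in Meishan and 1572 in Yorkshire (-0.19, SE 0.27). CDC25B, the phosphatase that activates CDK1 before mitosis, averaged 631 in Meishan and 794 in Yorkshire (-0.33, SE 0.29).

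The G1 genes with a value were only 3 of 9 in the list. CCND2, cyclin D2, read 335, 157, 183 and 223 in Meishan gilts and 221, 306, 466 and 532 in Yorkshire gilts. Meishan 1 was above 2 of the Yorkshire gilts, and the means of 215 and 360.1 differed by -0.74 on the log2 scale (SE 0.35, limma adjusted p = 0.378). CDK6, a kinase that D cyclins activate, read 469, 478, 331 and 481 in Meishan gilts and 614, 435, 571 and 757 in Yorkshire gilts. Meishan 3 stood below the other 3 of its breed, the log2 difference was -0.42 (SE 0.23, limma adjusted p = 0.440), and the dimmer CDK6 probeset showed 0.00 (SE 0.29). CDK2, the kinase of cyclins E and A, averaged 426 in Meishan and 357 in Yorkshire (0.25, SE 0.26), with 0.25 and 0.40 at its other probesets.

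The 3 inhibitors lay on both sides. CDKN3, a phosphatase that removes the activating phosphate of CDK2 and whose transcript is abundant in dividing cells, read 451, 257, 296 and 449 in Meishan gilts and 258, 160.0, 239 and 217 in Yorkshire gilts. Only Meishan 2 lay within the Yorkshire range, at its upper edge (means 352 and 215, log2 difference 0.71, SE 0.26, limma adjusted p = 0.271). CDKN1B, p27, which keeps resting cells out of S phase, read 3055, 5411, 4425 and 3445 in Meishan gilts and 6636, 5879.8, 4929 and 3763 in Yorkshire gilts. The breeds overlapped over most of their range (-0.38, SE 0.26, limma adjusted p = 0.546), and the other CDKN1B probesets gave -0.42 (SE 0.41) and -0.10 (SE 0.51). CDKN1A, p21, the inhibitor induced by p53, averaged 574 in Meishan and 519.9 in Yorkshire (0.14, SE 0.24).

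Of the replication genes, MCM2 gave the other called probeset but not a uniform answer. MCM2 is a subunit of the replicative helicase and is loaded on origins before S phase. At the middle of its 3 annotated probesets in brightness it read 183, 174, 180.3 and 164 in Meishan gilts, against 97.6, 81.3, 70.5 and 75.5 in Yorkshire gilts. Each breed was tight and the breeds were far apart, and MCM2 at this probeset was 2.17-fold higher in Meishan (log2 difference 1.12, SE 0.17, limma adjusted p = 0.0536 after Benjamini-Hochberg adjustment). The call held without Meishan 1 or Yorkshire 1 and was lost without any 1 of the other 6 gilts, with limma adjusted p up to 0.139. At its brightest probeset MCM2 averaged 249.5 in Meishan and 199.7 in Yorkshire (0.32, SE 0.33), and at the dimmest 34.4 in Meishan and 41.2 in Yorkshire (-0.26, SE 0.49). A further probeset that only the study's table names as MCM2 read 1079, 819, 766 and 1063 in Meishan gilts and 665, 710.5, 705.5 and 858 in Yorkshire gilts, given here as a description because that table lists what the study called on these arrays. Probesets of 1 gene can differ because they read different parts or forms of its transcript, or for other reasons. The cause here was not tested, and the called difference rests on 1 probeset.

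The other helicase subunits with a value were MCM3, MCM4 and MCM5, of which MCM4 was dim. MCM4 read 48.7, 94.8, 126 and 34.8 in Meishan gilts and 43.7, 25.6, 24.6 and 16.7 in Yorkshire gilts, where Meishan 4 was below Yorkshire 1 (means 67.1 and 26.1, log2 difference 1.36, SE 0.46, limma adjusted p = 0.235). With signals below 32 set to 32 the log2 difference of MCM4 was 0.93, with a limma adjusted p of 0.279. MCM5 had probesets on opposite sides. At its brightest probeset it averaged 117 in Meishan and 102 in Yorkshire (0.20, SE 0.44). At the middle of its 3 probesets in brightness MCM5 read 80.1, 15.8, 19.1 and 119 in Meishan gilts and 146, 97.3, 133 and 137 in Yorkshire gilts (-1.62, SE 0.66, limma adjusted p = 0.307), so that 2 Meishan gilts were far below and 2 near the Yorkshire range. MCM3 averaged 105 in Meishan and 97.7 in Yorkshire (0.10, SE 0.29).

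GMNN, geminin, blocks a repeat loading of helicases within a cycle. At the annotated probeset it read 870.1, 1202, 742 and 1006 in Meishan gilts and 1327, 1348, 1211 and 786 in Yorkshire gilts (log2 difference -0.28, SE 0.25, limma adjusted p = 0.646). The probeset named GMNN only in the study's table read 268, 681, 450.2 and 530.1 in Meishan gilts and 235, 252, 135 and 103 in Yorkshire gilts. The KIF20A probeset named only there read 203, 484, 411 and 325 in Meishan gilts and 115, 173, 133 and 120.2 in Yorkshire gilts. That table lists probesets for being called on these arrays, so a breed difference at them follows from the choice. These values carry no test and are not set against the annotated probesets.

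At the fork, TOP2A, the topoisomerase that untangles sister chromosomes and peaks in G2 and mitosis, read 772, 328, 541 and 793 in Meishan gilts and 389.8, 309.5, 339 and 334 in Yorkshire gilts. The Yorkshire gilts were close together, and Meishan 2 lay inside their range while the other 3 Meishan gilts were above it (means 574 and 342, log2 difference 0.75, SE 0.30, limma adjusted p = 0.301). PCNA, the sliding clamp, which also serves repair in resting cells, read 1594, 471, 641 and 1226 in Meishan gilts and 619, 573, 707 and 1203 in Yorkshire gilts. Its Meishan values spanned the whole Yorkshire range (0.24, SE 0.43, limma adjusted p = 0.838). RPA1, the large subunit of the protein that coats single strands, read 1570.3, 816, 817 and 1069.6 in Meishan gilts and 1087, 1211, 1038 and 1601 in Yorkshire gilts (-0.24, SE 0.27, limma adjusted p = 0.721). FEN1, the flap nuclease, averaged 318 in Meishan and 285 in Yorkshire (0.16, SE 0.28). RFC5, a subunit of the clamp loader, averaged 475.5 in Meishan and 492 in Yorkshire (-0.05, 95% interval -0.48 to 0.39). Of this group TOP2A alone reached an unadjusted p under 0.05.

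The enzymes that supply nucleotides lay on both sides as well. RRM2, the small subunit of ribonucleotide reductase, which is made mainly in S phase, read 296, 104, 189 and 358 in Meishan gilts and 126, 72.9, 136 and 213 in Yorkshire gilts. The breeds overlapped through Meishan 2 and Yorkshire 4 (means 214 and 128, log2 difference 0.74, SE 0.46, limma adjusted p = 0.495). TYMS, thymidylate synthase, read 256, 150.1, 195 and 182 in Meishan gilts and 182, 95.4, 117 and 112 in Yorkshire gilts. Yorkshire 1 was as high as Meishan 4 and the other 3 Yorkshire gilts were below every Meishan gilt (0.65, SE 0.26, limma adjusted p = 0.308). RRM1, the large subunit, which is longer lived, averaged 1200.2 in Meishan and 1408 in Yorkshire (-0.23, SE 0.22).

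The transcripts of dividing cells varied among gilts of a breed as well as between breeds. The mean log2 signal of the 29 transcripts of dividing cells was 8.47, 7.75, 8.05 and 8.35 in the Meishan gilts, and 8.02, 7.64, 7.69 and 7.70 in the Yorkshire gilts. Meishan averaged 8.15 ± 0.32 and Yorkshire 7.76 ± 0.17 (SD, n = 4 each), and the breeds overlapped because Meishan 2 lay below Yorkshire 1. For the other 9 members the means were 9.78, 9.48, 9.48 and 9.67 in Meishan gilts and 9.78, 9.75, 9.94 and 9.82 in Yorkshire gilts. Over all 38 genes they were 8.78, 8.16, 8.39 and 8.66 in Meishan gilts and 8.44, 8.14, 8.22 and 8.20 in Yorkshire gilts. Genes in a list share the same arrays, so these means are a description and no p is given.

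**Figure D3:**
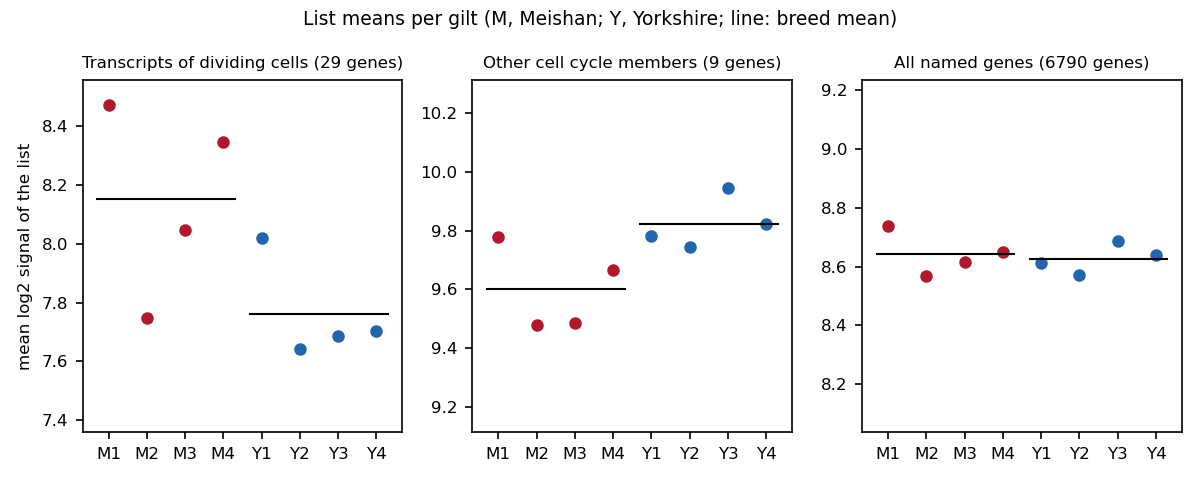
Mean log2 signal per gilt (M, Meishan; Y, Yorkshire) over 29 transcripts of dividing cells, 9 other cell cycle members and 6790 named genes, on axes of equal span with a line at each breed mean. The 29 transcripts spread from 7.75 to 8.47 among Meishan gilts and from 7.64 to 8.02 among Yorkshire gilts, while the means over all named genes lie between 8.57 and 8.74.

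Meishan 2 was the lowest gilt of its breed in 19 of the 29 transcripts of dividing cells (65.5%), against 35.6% of all named genes, and Meishan 1 in 0 of them, against 19.3%. Meishan 4 was the highest of its breed in 14 (48.3%), against 20.3% of all named genes, and Meishan 1 in 11 (37.9%), against 40.9%. In the other breed Yorkshire 1 was the highest in 17 of the 29 (58.6%), against 17.1% of all named genes. The spread among Meishan gilts was a little wider, with a median within-breed SD of 0.47 on the log2 scale over the 38 genes against 0.36 in Yorkshire. Over all 6790 named genes it was also wider in Meishan, at 0.34 against 0.31. Without Meishan 2 the median log2 difference of the 29 transcripts was 0.62, and the median of all 38 genes ranged from 0.09 without Meishan 1 or Meishan 4 to 0.39 without Meishan 2, with 0.11 without Yorkshire 2 and 0.33 without Meishan 3.

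**Figure D4:**
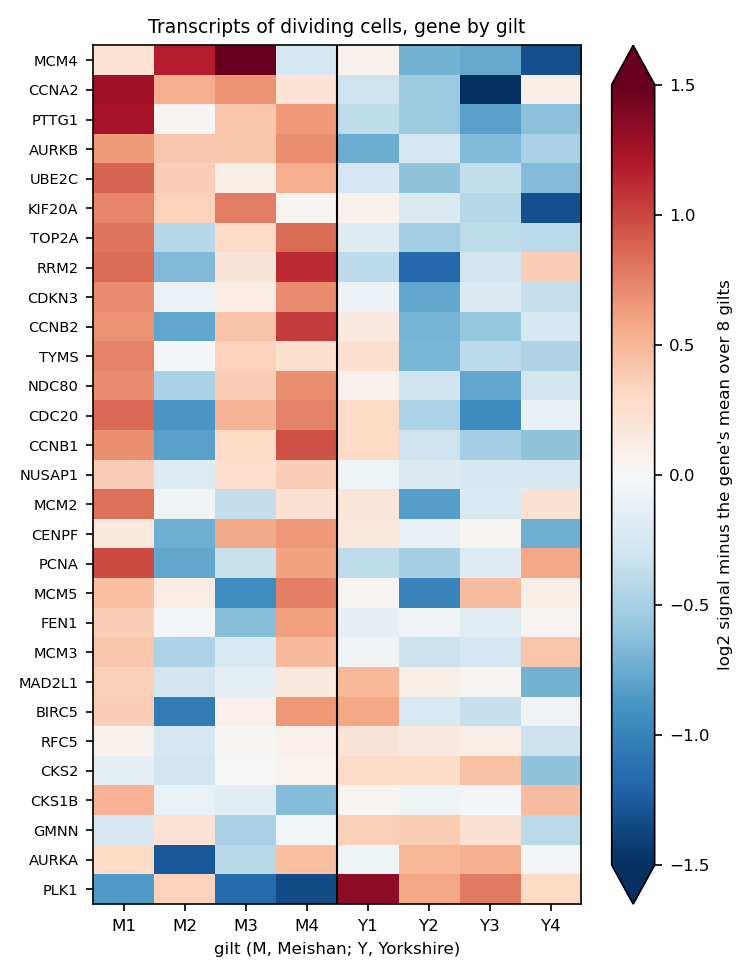
Log2 signal of each of 29 transcripts of dividing cells minus its mean over the 8 gilts (colour, clipped at the ends of the bar), gene by gilt, ordered by breed difference. Meishan 1 and Meishan 4 are red in most rows and Meishan 2 blue in many, and PLK1 in the last row runs opposite to AURKB.

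Array measures of the same gilts are given beside these transcripts. The log2 difference between the 3′ and the 5′ control probesets of GAPDH, a measure of RNA integrity that grows as RNA is broken, was 1.77, 2.84, 2.19 and 2.05 in Meishan gilts and 2.02, 2.32, 2.51 and 1.76 in Yorkshire gilts. Meishan 2, lowest of its breed in the transcripts of dividing cells, had the highest of these, and Meishan 1 the lowest of its breed. Among Yorkshire gilts the order of the GAPDH measure differed, since Yorkshire 1, highest in these transcripts, lay between Yorkshire 4 and Yorkshire 2. The same measure for actin was 0.64, 1.73, 1.54 and 1.40 in Meishan gilts and 1.01, 1.31, 2.15 and 1.18 in Yorkshire gilts. For actin, Meishan 1 and Yorkshire 1, each highest of its breed in the mean of these transcripts, had the lowest value of their breed. Meishan 2 and Yorkshire 3 had the highest, whereas the mean of these transcripts was lowest in Meishan 2 and Yorkshire 2. The breeds overlapped in both measures. Bacterial spike-in controls added on the bench averaged 11.7 to 12.6 on the log2 scale on Meishan arrays and 10.8 to 11.2 on Yorkshire arrays, without overlap. No array batch is labelled, and a batch that coincides with breed and the breed itself cannot be told apart in any difference given here. The part of RNA integrity in the breed differences was not tested.

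The breed difference over all probesets also moved with brightness. Probesets were put in 10 bins of equal size by brightness, and the median log2 difference was 0.46 in bin 1, the dimmest, 0.05 in bin 5 and -0.11 in bin 9. Transcripts of dividing cells are mostly of middling brightness, and the other members mostly bright. Member genes lay above the median of their own bin in 26 of 38 cases. Member medians were 0.52 in bin 4 (2 of 4 genes above), 0.65 in bin 5 (6 of 6) and 0.32 in bin 6 (4 of 5). In bin 7 the member median was 0.56 (7 of 7), where all probesets had -0.07. In the brighter bins member medians were -0.002 in bin 8 (4 of 6), -0.21 in bin 9 (2 of 6) and -0.29 in bin 10 (0 of 2). The part of brightness in the medians of the 29 transcripts and the other 9 members was not tested further.

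**Figure D5:**
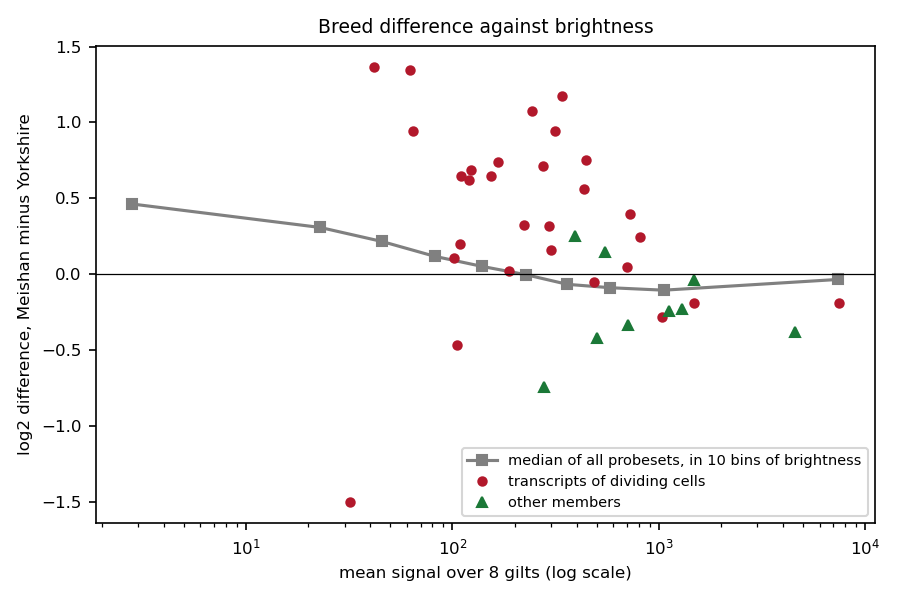
Log2 difference, Meishan minus Yorkshire, of 38 cell cycle genes against mean signal over 8 gilts (log scale), with the median of all probesets in each of 10 bins of brightness as squares joined by a line. The line runs from 0.46 in the dimmest bin to -0.11 in bin 9, and most transcripts of dividing cells between signals of 100 and 500 lie above it.

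The tissue label was checked against marker genes. Epithelial EPCAM averaged 10980.2 in Meishan and 10170.4 in Yorkshire, stromal VIM, vimentin, 25493 in Meishan and 18368 in Yorkshire, and the uterine gland product ACP5, uteroferrin, 21429.8 in Meishan and 23005 in Yorkshire. These are levels of separate probesets and are not compared with each other. Of the markers measured, 6 of 13 epithelial, 5 of 9 stromal, 3 of 9 endothelial, 1 of 6 smooth muscle and 2 of 4 blood cell genes lay toward Meishan, and 0 of them were called in limma (1 reached an unadjusted p under 0.05 toward Meishan, VIM, and 2 toward Yorkshire, CLDN5 and CDH5). Of 11 uterine markers 3 lay toward Meishan and 8 toward Yorkshire, and limma called 0 of them. Those with an unadjusted p under 0.05 were PGR, the progesterone receptor, at 336 in Meishan and 495 in Yorkshire with the breeds apart (-0.56, SE 0.20), and WFDC2, a secreted protein of epithelium, at 542 in Meishan and 2293 in Yorkshire (-2.08, SE 0.85). The list means overlapped between breeds for epithelium, at 10.95 to 11.46 in Meishan and 10.98 to 11.51 in Yorkshire on the log2 scale.

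Leukocytes and conceptus cells can also bring dividing cells into such a sample. Of 19 leukocyte markers 11 lay toward Meishan with a median of 0.19, the list mean ran from 6.74 to 7.46 in Meishan gilts and from 6.79 to 7.19 in Yorkshire gilts, and CD79B, a B cell receptor chain, rose (means 80.4 and 34.3, log2 difference 1.23, limma adjusted p = 0.0920 after Benjamini-Hochberg adjustment). Also toward Meishan was ITGB2, at 455 in Meishan and 287 in Yorkshire with the breeds apart (0.66, SE 0.26, limma adjusted p = 0.292). ITGAM was dim, at 42.1 in Meishan and 14.1 in Yorkshire (1.58, SE 0.71, limma adjusted p = 0.358). The other 8 lay toward Yorkshire, among them CD3E, a chain of the T cell receptor complex, at 96.2 in Meishan and 152 in Yorkshire (-0.66, SE 0.27, limma adjusted p = 0.308). Meishan 2, low in the transcripts of dividing cells, had the highest leukocyte mean, and Meishan 1, high in them, the lowest. Of 14 markers of conceptus trophoblast 11 lay toward Yorkshire with a median of -0.32. In 6 of the 14 the means of both breeds were dim, below 64, so the direction of these rests on low signals. The list mean ran from 5.74 to 6.76 in Meishan gilts and from 6.37 to 7.24 in Yorkshire gilts. TFAP2C, a trophoblast transcription factor, averaged 6.07 in Meishan and 51.0 in Yorkshire (log2 difference of -3.07 with a limma adjusted p of 0.105), where 0 of the Meishan values reached 32 and both means were dim, so the size of this difference rests on very low signals. IFNG, which the pig conceptus secretes at this stage, read 14.2, 904, 304 and 114 in Meishan gilts and 4604, 221, 6286 and 33.5 in Yorkshire gilts (-2.23, SE 1.91, limma adjusted p = 0.636). Yorkshire 1 and Yorkshire 3 were far above the rest, and Yorkshire 4 was below 3 of the Meishan gilts. CDX2 and ELF5, which also mark trophoblast, had no probeset matched. The part of these cells in the cell cycle values was not tested.

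A wider list of the pathway, outside the members, gave 67 measured genes of 144. Of these, 38 lay toward Meishan and 29 toward Yorkshire, with a median of 0.09. Limma called 0, as did the model without moderation, and at an unadjusted p under 0.05 limma had 8 toward Meishan and 5 toward Yorkshire, beside 420 and 416 of all 6790 named genes. CENPI, a centromere protein, averaged 102 in Meishan and 216 in Yorkshire, with the breeds apart (-1.09, SE 0.27, limma adjusted p = 0.148), and it was called with the brightest 70% of probesets alone or with a floor on low signals. POLA2, the B subunit of the polymerase that primes DNA, averaged 178 in Meishan and 90.6 in Yorkshire, also apart (0.97, SE 0.31, limma adjusted p = 0.214). CDKN2C, p18, an inhibitor of CDK4 and CDK6, averaged 114 in Meishan and 45.8 in Yorkshire, apart as well (1.32, SE 0.42, limma adjusted p = 0.217). CDKN2B, p15, of the same family, was dim at 10.3 in Meishan and 28.9 in Yorkshire (-1.49, SE 0.49, limma adjusted p = 0.226).

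Targets of p53 that arrest growth, the company of CDKN1A, were measured for 11 of 16 genes. Of these, 4 lay toward Meishan and 7 toward Yorkshire, with a median of -0.27. ZMAT3, a p53 target that binds RNA, fell in Meishan and was called, with a mean of 82.7 in Meishan gilts against 756 in Yorkshire gilts (log2 difference -3.19, SE 0.41, limma adjusted p = 0.0306 after Benjamini-Hochberg adjustment). BTG2, an antiproliferative p53 target, averaged 1844 in Meishan and 2619 in Yorkshire (-0.51), PLK3 averaged 11.9 in Meishan and 18.2 in Yorkshire (-0.62), and GADD45A, a growth arrest gene, averaged 3013 in Meishan and 2505 in Yorkshire (0.27). BTG2, PLK3 and GADD45A did not reach an unadjusted p under 0.05.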

How the data were processed

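Linear signal intensities were deposited, 1 array per gilt, which the authors computed from the scans in GCOS 1.2 and scaled to a mean of 500.1 after trimming 2% of probesets at each end. Of 24123 probesets, 124 controls were left out. Signals were put on the log2 scale, centred per array on the median, and fitted with limma 3.58.1 in R 4.3.3 (prior degrees of freedom 2.09), with Benjamini-Hochberg adjustment over 23999 probesets. Probesets were called at an adjusted p under 0.1. The study applied the same number to q-values from its own model and called many more probesets. A member not called here may therefore be called there. The authors' fold changes and p-values in their table were not used, only its symbols. The annotation of the array names 10110 probesets with 1 symbol and 157 with several, and leaves 13732 unnamed. On simulated data with independent normal noise and 200 of 23999 probesets changed, 0 were recovered at a log2 change of 1. At 2 it recovered 115 beside 19 false calls, and at 4 it recovered 179 beside 16. Adjusted p depends on how many probesets differ, and the real arrays had 3540 at an unadjusted limma p under 0.05. The simulation therefore does not give the smallest change detectable here, and AURKB was called at 1.07. The number of arrays limits the precision.

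Per-gilt values are given for called members, the 2 members of each role with the lowest p, TOP2A, PCNA, and genes with opposed probesets of which 1 had an unadjusted p under 0.05 (MCM2 and MCM5), and those of CCNB1, CKS2, KIF20A and BIRC5 were added after values were seen. The members and lists were chosen with earlier results of these data known. Alternatives changed the scaling, normalization, filter, floor, variance model, threshold, replicate block, probeset of a gene and the gilts. Detection calls were not used, and promoter and protein sequences were not used here.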

Additional observations from a re-analysis of the deposited data

Results flagged for a closer look

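In 6 of 102 sets of 4 gilts (a gene or list mean in 1 breed), 1 gilt stood far from the other 3, measured as its gap to the nearest over the whole range. Chance gives about 1 such set in 20. CDK6 read 331 in Meishan 3, with 469 as the nearest Meishan value. CKS2 read 4913 in Yorkshire 4, with 9025 as the nearest. RFC5 read 404 in Meishan 2, with 491 as the nearest. BUB3 read 1973 in Meishan 1, with 1322 as the nearest. The mean log2 signal of the nucleotide supply genes was 7.68 in Yorkshire 2, with 8.23 as the nearest. The mean over the 29 transcripts of dividing cells was 8.02 in Yorkshire 1, with 7.70 as the nearest.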

How the results depend on the processing

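The median differences of the 38 genes, the 29 transcripts of dividing cells and the other 9 members kept their direction under every alternative run. Called probesets toward Meishan and toward Yorkshire numbered 260 and 400 with the brightest 70%, 347 and 430 with signals below 32 set to 32, 225 and 401 with an intensity trend, 247 and 250 with array quality weights, and 22 and 38 at an adjusted p under 0.05, against 97 and 121. Members called toward Meishan were 4 with the brightest 70%, the floor or the trend, and 0 at 0.05. AURKB and the called MCM2 probeset stayed called under every alternative except the threshold of 0.05, the replicate block and gilts left out. PTTG1 was also called with the brightest 70%, the floor, the trend and the weights, and UBE2C with the brightest 70%, the floor, the trend, no further scaling and quantile normalization. Leaving out 1 gilt gave 29 to 104 calls toward Meishan and 43 to 101 toward Yorkshire, with 0 to 1 members each way (PLK1 toward Yorkshire without Meishan 2). Without 1 gilt the medians ranged from 0.09 to 0.39 for the 38 genes, from 0.34 to 0.62 for the 29 transcripts and from -0.31 to -0.13 for the other 9. Differences near 0 reversed: BUB3 was 0.026 without scaling, 0.066 with quantile and 0.067 with cyclic loess normalization, RFC5 0.013, 0.029 and 0.045 under these 3 in turn, MCM3 -0.026 with quantile and -0.00322 with loess, BIRC5 -0.0051 with quantile and -0.050 with weights, and MAD2L1 -0.11 with weights. Leaving out 1 gilt moved BIRC5 from -0.19 to 0.38, BUB3 from -0.18 to 0.015, MAD2L1 from -0.18 to 0.22, MCM3 from -0.041 to 0.28, PCNA from -0.045 to 0.54, RFC5 from -0.17 to 0.028, FEN1 from -0.021 to 0.40 and MCM5 from -0.10 to 0.54. The cause was not tested. Spread was not measured by brightness, and dim probesets limit what can be seen.

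The labels do not say that replicate numbers pair the gilts. Over all probesets, deviations of gilts with the same number correlated at -0.0561, 0.0890, 0.00105 and 0.0407. The mean of the 29 transcripts of dividing cells was highest in gilt 1 of each breed, at 8.47 in Meishan and 8.02 in Yorkshire. It was lowest in gilt 2, at 7.75 in Meishan and 7.64 in Yorkshire. Whether this reflects a pairing was not tested. With the replicate block limma called 0 probesets toward Meishan and 0 toward Yorkshire (3327 at an unadjusted p under 0.05), and 0 members (11 toward Meishan and 2 toward Yorkshire at an unadjusted p under 0.05).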
